A study of Mus musculus with 161 samples.

Results

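The domain between boundaries 5 and 6 is a stretch of 1.98 Mb of the mouse X chromosome (chrX, 101.23 to 103.21 Mb, build mm9) that lies between a pair of CTCF-dependent boundaries. Its contacts were measured by chromosome-conformation capture carbon copy (5C), in which forward and reverse primers capture the ligation products of neighbouring HindIII fragments. Members were chosen by position alone as all pairs of a forward and a reverse fragment whose midpoints both fell in the domain and lay at least 40 kb apart. This gave 42784 fragment pairs of the 212485 pairs of the whole 5C region, built from 423 of the 922 fragments with a primer. By distance, 2649 of them spanned 40–100 kb, 4150 spanned 100–200 kb, 7101 spanned 200–400 kb, 11895 spanned 400–800 kb and 16989 spanned more than 800 kb.

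The data came from male E14Tg2a mouse embryonic stem cells and comprised 91 5C libraries in 29 groups. Transgene lines carried CTCF-AID, in which the endogenous protein bears a degron that auxin triggers, together with Tir1, Rtta3G and a CTCF cDNA under the TetO promoter, and received auxin and dox for 4 days, so that the protein with the degron was removed and the transgene was induced. The full-length cDNA gave 14 libraries, its line with low expression gave 2, and the full-length line given auxin without dox for 4 days ("no dox") gave 2. Deletion lines (ΔN, written dN in the plots) were ΔN(1–265) clone 1 (6 libraries) and clone 2 (4), ΔN(13–33) clone 1 (6) and clone 2 (4), ΔN(1–31) clones 1 and 2 (2 each), ΔN(1–89), ΔN(90–178), ΔN(179–265) and ΔN(264–288) (2 each), and, in the C terminus, Del_576-614 (3, of which replicate 1 bears another mutant's name in its title and was grouped by its cell line), Del_577-736 and Del_615-736 (1 each). The other transgenes, with 2 libraries each, were the substitutions Y226A/F228A, alone and with ΔN(13–33), the first zinc-finger substitution H288R, an N/C-term swap, a Parylation-deficient mutant, and Sumoylation-deficient mutants 1 and 2, which join K74R to Del_576-614 and Del_615-736. Untreated cells comprised the WT parental line (3 libraries), CTCF-AID, Tir1 (4), and clones with endogenous deletion of residues 13–33 in the WT (3 and 4) or CTCF-AID (4 and 4) background. Each transgene group is a single line or clone, and the labels do not say whether libraries of a line came from separate cultures, so that p-values measure only the spread between these libraries. Expression of the transgenes cannot be read from 5C, which also averages over all cells of a library, so fewer cells with a contact and fewer contacts per cell cannot be told apart.

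CTCF is a zinc-finger protein that binds DNA at an asymmetric motif and, through its N terminus, meets cohesin, the ring complex that extrudes chromatin loops. Loops tend to form between CTCF sites whose motifs point toward each other, and the stretches between such sites appear as topologically associating domains (TADs), within which contacts are more frequent than across their boundaries. Contact frequency falls with genomic distance, so most comparisons below were made at matched distance. The share of contact inside the domain was not, since it sums over all distances from 40 kb.

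The domain held few CTCF sites for its length. The FLAG–CTCF peaks, called in the full-length line after 2 days of auxin and dox, numbered 15 in the domain of 78 in the 5C region, or 7.58 per Mb against 24.1 per Mb in the rest. Of the 12 protein-coding genes, C77370 (chrX:101272773-101396524) lay next to boundary 5 and Magt1 (chrX:103163423-103207245), which encodes a magnesium transporter, and the start of Cox7b (chrX:103211039-103217789), a subunit of cytochrome c oxidase, lay at boundary 6. Between them lay, among others, Zdhhc15, a palmitoyltransferase, Magee2 and Magee1 of the MAGE family, Fgf16, a fibroblast growth factor, and Atrx, a chromatin remodeller.

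The sequences of 7 peaks are shown because the contacts described below join the bins that hold them. Each is the interval of 200 bases of the list, read on the plus strand from the mm9 reference, with capitals marking a match to CCNNNAGNNGGC, the central letters of the CTCF motif searched on both strands. This match was held by 9 of the 15 peaks of the domain and by 51.3% of the 1128 peaks of the chromosome.
Peak 1 (chrX:101307049-101307248, intron of C77370, core on the plus strand): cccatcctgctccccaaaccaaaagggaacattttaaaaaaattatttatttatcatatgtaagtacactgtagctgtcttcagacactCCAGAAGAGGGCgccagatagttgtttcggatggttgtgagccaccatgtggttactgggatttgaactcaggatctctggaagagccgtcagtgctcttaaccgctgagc
Peak 2 (chrX:101309995-101310194, intron of C77370, core on the minus strand): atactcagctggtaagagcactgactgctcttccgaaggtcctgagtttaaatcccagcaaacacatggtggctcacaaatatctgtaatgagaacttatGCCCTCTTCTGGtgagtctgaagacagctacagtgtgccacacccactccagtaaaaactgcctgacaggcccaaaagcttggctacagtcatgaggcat
Peak 3 (chrX:101374695-101374894, intron of C77370, core on the plus strand): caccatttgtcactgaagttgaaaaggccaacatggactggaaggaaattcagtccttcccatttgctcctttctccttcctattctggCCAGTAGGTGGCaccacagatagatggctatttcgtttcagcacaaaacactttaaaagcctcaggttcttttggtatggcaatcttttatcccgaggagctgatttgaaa
Peak 6 (chrX:102052041-102052240, exon of Magee2, no core): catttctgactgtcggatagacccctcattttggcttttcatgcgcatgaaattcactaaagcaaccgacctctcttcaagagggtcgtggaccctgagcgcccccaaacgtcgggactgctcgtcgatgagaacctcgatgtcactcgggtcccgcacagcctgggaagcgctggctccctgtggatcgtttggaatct
Peak 7 (chrX:102201941-102202140, intergenic, core on the minus strand): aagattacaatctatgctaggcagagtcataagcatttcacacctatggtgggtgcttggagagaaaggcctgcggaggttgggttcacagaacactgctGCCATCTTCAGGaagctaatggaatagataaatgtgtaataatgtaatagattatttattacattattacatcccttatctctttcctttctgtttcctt
Peak 14 (chrX:103152341-103152540, intergenic, core on the plus strand): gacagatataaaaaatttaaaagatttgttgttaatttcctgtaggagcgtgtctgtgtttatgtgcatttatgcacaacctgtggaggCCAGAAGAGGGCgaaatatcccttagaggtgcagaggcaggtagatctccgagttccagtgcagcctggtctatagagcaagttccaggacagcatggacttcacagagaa
Peak 15 (chrX:103208673-103208872, intergenic, 1527 bp from Magt1, core on the minus strand): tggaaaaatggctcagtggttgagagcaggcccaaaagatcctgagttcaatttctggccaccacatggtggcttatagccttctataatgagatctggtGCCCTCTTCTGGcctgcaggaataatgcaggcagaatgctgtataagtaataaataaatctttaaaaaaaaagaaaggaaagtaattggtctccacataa
Peaks 1, 2, 13, 14 and 15 held the same 12 letters in the core, CCAGAAGAGGGC on the strand of the motif, which also stood in 178 peaks of the chromosome, or 30.7% of those with a core. Peaks 1 to 3 lay 76.0, 78.9 and 143.6 kb from the boundary 5 end, and peak 15 lay 2.4 kb from the boundary 6 end. Peak 4 overlapped an exon of Zdhhc15, and peaks 5 to 11, in the middle of the domain, held a single core, that of peak 7. Peak 12 (core on the plus strand) lay 1273 bp from Fgf16, and peak 13 (plus strand) in an intron of Atrx.

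Library depth was 3631870 to 23419010 counts (median 11971070) in the 82 libraries whose count tables were complete, of which 573440 to 4093477 fell on member pairs. Per library, 3.39 to 51.3% of the member pairs (median 17.6%) held no contact, so that means over many pairs were used. Values are corrected contact values scaled to 1000000 per library and are given per 1000000 (ppm). The library numbers of the labels fell into 6 series parted by gaps of more than 10, called runs here, and full-length CTCF had libraries in all 6 while most mutants had theirs in 1. Both full-length libraries of run 5 had the lowest shares of contact inside the domain among the 14, as given beside the results that rest on them.

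Contacts in the domain fell steadily with distance, and set against the rest of the region at matched distance they were most in excess at 400–800 kb. With full-length CTCF, the mean value of a fragment pair was 17.2 ± 1.35 ppm (SD, n = 14) at 40–100 kb, 9.23 ± 0.83 ppm at 100–200 kb, 5.87 ± 0.57 ppm at 200–400 kb, 3.32 ± 0.30 ppm at 400–800 kb and 1.24 ± 0.12 ppm beyond 800 kb. The other pairs of the region gave 19.5, 10.5, 5.54, 2.46 and 1.01 ppm in the same classes. The slope of log contact on log distance within the domain was −0.843 ± 0.040 with full-length CTCF and lay between −0.914 and −0.687 in all 91 libraries.

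To separate the domain from the decay with distance, its mean was divided by that of all other pairs of the region in the same distance bin of 40 kb. On the log2 scale, full-length CTCF gave −0.197 ± 0.015, −0.181 ± 0.013, 0.093 ± 0.027, 0.416 ± 0.062 and −0.039 ± 0.041 in the 5 classes (SD, n = 14). The lowest, median and highest of the 14 libraries at 400–800 kb were 0.286, 0.414 and 0.527. All 91 libraries were below the rest of the region at 40–100 kb (−0.300 to −0.119) and 100–200 kb (−0.244 to −0.100), and all were above it at 400–800 kb (0.230 to 0.644). At 200–400 kb and beyond 800 kb the libraries fell on both sides (−0.051 to 0.207 and −0.194 to 0.170).

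**Figure D1:**
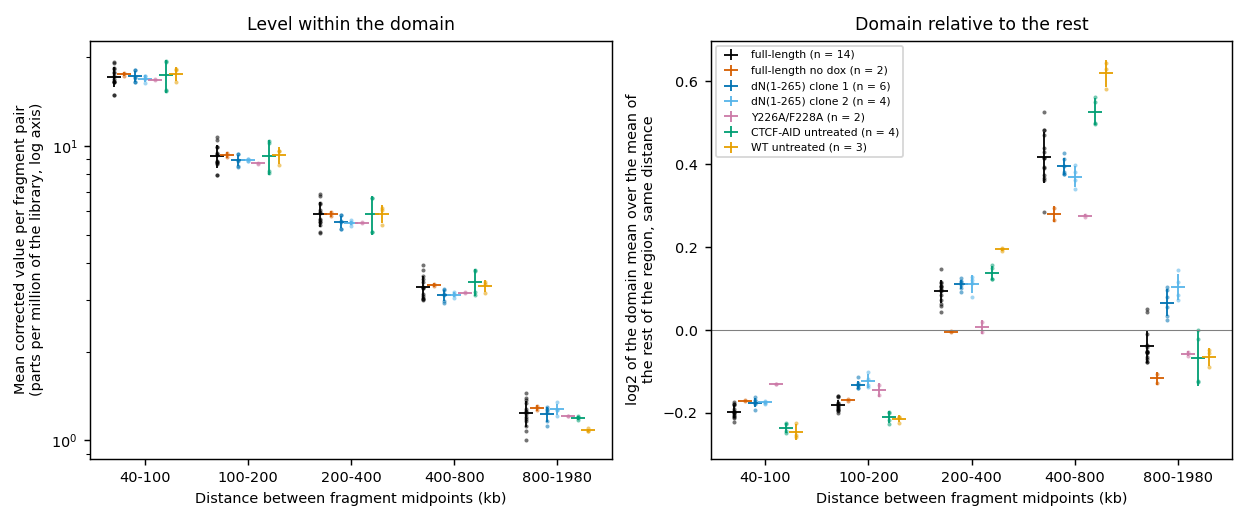
Left, mean corrected value per fragment pair within the domain (ppm, log axis) and right, log2 of the domain mean over the mean of the rest of the region at the same distance, against distance class (kb), with 1 point per library and bars for mean ± SD. The 7 groups shown are close to each other on the left, while at 400–800 kb on the right WT libraries sit between 0.582 and 0.644 and no dox libraries at 0.266 and 0.294.

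Untreated WT cells showed the largest excess at 400–800 kb. The 3 WT libraries gave 0.631, 0.644 and 0.582, the 4 CTCF-AID libraries gave 0.498 to 0.562, and the endogenous deletion of residues 13–33 gave means of 0.568 in WT (n = 7) and 0.472 in CTCF-AID cells (n = 8). The lowest values were 0.294 and 0.266 in no dox, 0.234 in the single Del_577-736 library, 0.230 and 0.238 in the N/C-term swap and 0.278 and 0.273 in Y226A/F228A. The low-expression line gave 0.341 and 0.344, between no dox and the median of full-length CTCF, and the range of the full-length libraries (0.286 to 0.527) covered both of its values.

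Each transgene line was compared with full-length CTCF in each class by a two-sided exact permutation test, with Benjamini–Hochberg adjustment over the 100 combinations of 20 lines and 5 classes. Of these, 44 passed an adjusted p of 0.05, 13 lower and 31 higher, and 46 did so without adjustment. All lines shared the same 14 full-length libraries, and with 2 libraries against 14 the smallest possible p was 0.01667. The differences were small on the scale of the distance decay, the largest being 0.201 on the log2 scale.

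At short range the mean contact of the domain came closer to that of the rest of the region in 11 or 12 of the 20 lines. At 40–100 kb, 11 lines were higher than full-length CTCF and 1 was lower, and at 100–200 kb 12 were higher and 1 was lower. The gains were 0.068 in the N/C-term swap, 0.066 in Y226A/F228A and 0.026 in no dox at 40–100 kb. ΔN(1–31) clone 1 was the line that was lower in both classes, by −0.040 and −0.050, while its clone 2 was not called in either. ΔN(1–265) clone 1, called higher by 0.022 at 40–100 kb, differed by +0.039, +0.008 and −0.006 within runs 3, 4 and 6, the last 2 with overlapping libraries. These calls depended on the measure. With medians in place of means, 0 of 20 lines were called in either class. With raw counts 0 of 17 were called at 40–100 kb and 1 of 17 at 100–200 kb.

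At 200–400 kb the domain lost contact relative to the rest in 7 lines and gained in 1. No dox gave −0.005 and −0.003, below all full-length libraries (0.044 to 0.148), a difference of −0.097 (adjusted p = 0.03788, exact permutation test, n = 2 and 14). The N/C-term swap (−0.107), ΔN(1–89) (−0.096), Y226A/F228A (−0.087), ΔN(264–288) (−0.082), ΔN(1–31) clone 2 (−0.063) and ΔN(13–33) clone 1 (−0.043) were also lower. Within runs 4, 5 and 6, ΔN(13–33) clone 1 differed by −0.090, −0.059 and +0.008, the last with overlapping libraries. The Parylation-deficient mutant was higher, with 0.170 and 0.158. At 400–800 kb, Y226A/F228A (−0.141) and the N/C-term swap (−0.183) were called lower, and no dox (−0.136) had an adjusted p of 0.07407 by the exact permutation test (n = 2 and 14).

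Relative to the rest of the region, the longest contacts were lower in no dox and higher with ΔN(1–265) than with full-length CTCF. This held in means of corrected values, and the ratio does not say whether the domain or the rest changed. Beyond 800 kb, no dox gave −0.128 and −0.105 against −0.078 to 0.050 with full-length CTCF, a difference of −0.077 (adjusted p = 0.03788, exact permutation test, n = 2 and 14). ΔN(1–265) clone 1 gave 0.025 to 0.105 and clone 2 gave 0.073 to 0.144, differences of +0.106 and +0.144 (adjusted p = 0.01634 for both, exact permutation test, n = 6 and 4 against 14). H288R (+0.201), ΔN(264–288) (+0.162), ΔN(1–31) clone 1 (+0.127), ΔN(1–89) (+0.118) and ΔN(13–33) clone 2 (+0.062) were higher as well, and Sumoylation-deficient mutant 1 (−0.102) was lower. For ΔN(13–33) clone 2 the direction turned within run 5 (+0.049 in run 4, −0.019 in run 5, neither overlapping). A difference between these lines and no dox was not tested. The lower values depended on the measure. With medians in place of means, 0 of 20 lines were lower beyond 800 kb and 6 were higher at an unadjusted p of 0.05 by permutation. With raw counts 0 of 17 were lower and 8 were higher.

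Within single runs, the differences of no dox (run 3) were +0.033, +0.019, −0.107, −0.191 and −0.058 from the shortest class to the longest, and those of ΔN(1–265) beyond 800 kb were +0.136, +0.142 and +0.074 (runs 3, 4 and 6), none of them with overlapping libraries. With run as a block no combination was called (8 at an unadjusted p of 0.05 by permutation within runs), but most lines had 2 libraries in 1 run, too few for such a test to pass the adjustment. With raw counts 4 of 85 were called, and with medians in place of means 2 were.

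For the share of contact that stayed inside the domain, no line was called over all runs, while some lay below full-length CTCF within runs. This share is the percentage of the summed value of all pairs at least 40 kb apart with 1 or both fragments in the domain (148273 pairs) that lay between fragments of the domain. Full-length CTCF gave 58.49, 64.93 and 67.36% as the lowest, median and highest of 14 libraries, with a mean of 64.27 ± 2.22% (SD). Both no dox libraries (61.64 and 61.69%) lay between the lowest and the median library of full-length CTCF. ΔN(1–265) gave 60.67 to 63.80% over the 10 libraries of both clones, with means of 63.25 ± 0.31% (SD, n = 6) in clone 1 and 62.21 ± 1.02% (SD, n = 4) in clone 2. Y226A/F228A gave 62.26 and 62.59%, the low-expression line 63.97 and 64.24%, and the N/C-term swap 61.57 and 61.65%. All of these fell inside the range of the full-length libraries.

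None of the 20 lines was called against full-length CTCF by the exact permutation test, none had an unadjusted p under 0.05, and 14 were lower and 6 higher. The difference was −2.61 percentage points for no dox (p = 0.1667, adjusted p = 0.4762), −0.17 for low expression (p = 0.5667) and −1.84 for Y226A/F228A (p = 0.3167), by the exact permutation test with n = 2 and 14 each. For ΔN(1–265) as a whole it was −1.44 (p = 0.0683, permutation test, n = 10 and 14). This rested on the full-length libraries of run 5, which gave 58.49 and 60.49%. Without them, an alternative chosen after seeing the data, 12 lines were called, and the differences were −3.40 for no dox (adjusted p = 0.03663), −2.23 for ΔN(1–265) (adjusted p = 0.00042) and −2.64 for Y226A/F228A (adjusted p = 0.03663) by the same permutation tests. Low expression then differed by −0.97 and was not called. Run 5 was left out of full-length CTCF alone, and 2 of the 12 lines, ΔN(13–33) clones 1 and 2, kept their own libraries of run 5. Within run 5 they differed from full-length CTCF by +0.50 (overlapping) and +1.30, within run 4 by −4.03 and −0.96, and clone 1 in run 6 by +0.24 (overlapping). Within runs, where libraries did not overlap, no dox was lower by −3.94 and low expression by −1.50 (run 3), ΔN(1–265) by −3.11, −1.55 and −1.35 (runs 3, 4 and 6) and Y226A/F228A by −2.42 (run 6).

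**Figure D2:**
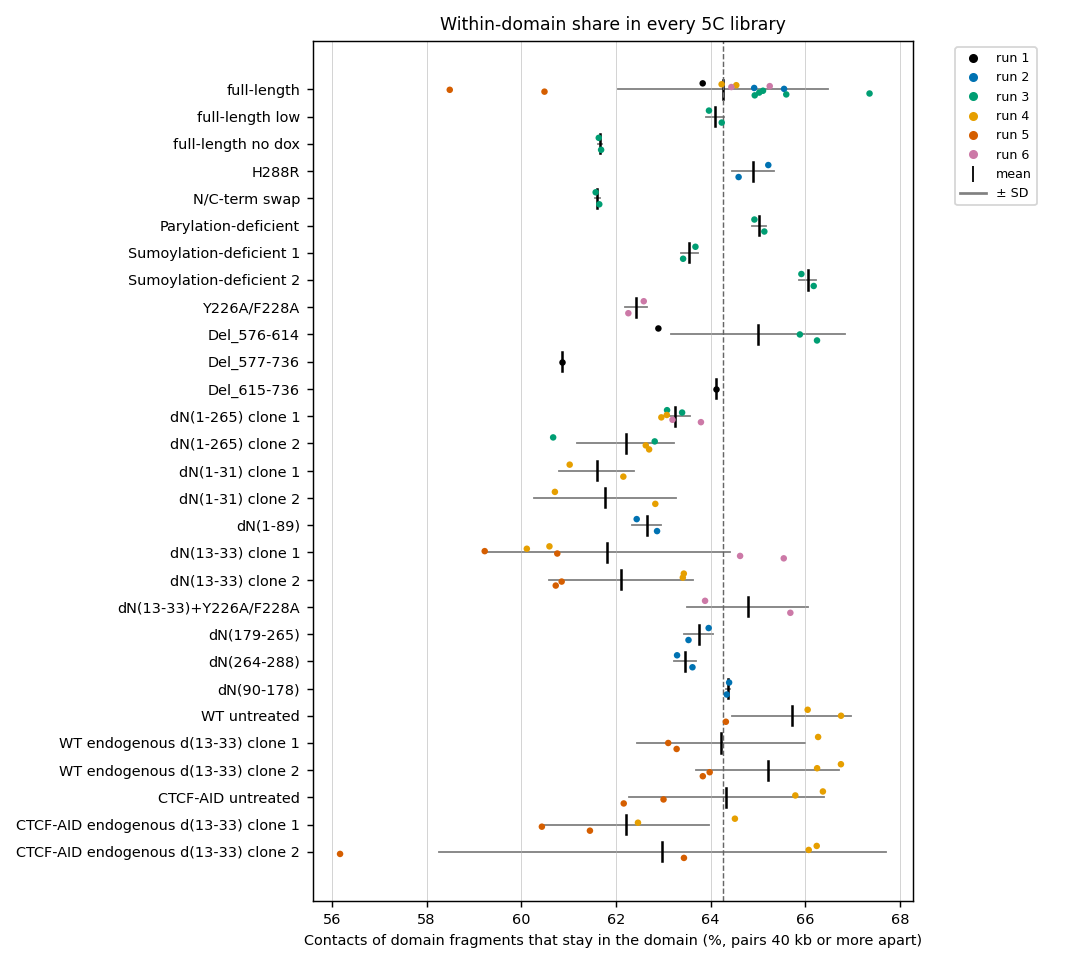
Share of contact of domain fragments that stayed in the domain (%, pairs at least 40 kb apart) in every library, by group, coloured by run, with black ticks for the mean, grey lines for ± SD and a dashed line at the full-length mean. Full-length libraries run from 58.49 to 67.36%, and the mutant groups overlap that range.

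In untreated cells the share was 64.32 to 66.76% in WT and 62.17 to 66.37% in CTCF-AID cells. Endogenous deletion of residues 13–33 gave 64.78 ± 1.57% (SD, n = 7) in WT and 62.60 ± 3.32% (SD, n = 8) in CTCF-AID cells, differences of −0.93 and −1.74 points (p = 0.3 and 0.3677, exact permutation test). These tests pooled the clones and took neither run nor replicate number into account. CTCF-AID cells differed from full-length transgene cells by 0.06 points (p = 0.9523, exact permutation test, n = 4 and 14) and from WT by −1.38 points (p = 0.3429, exact permutation test, n = 4 and 3). Over all 91 libraries the share ran from 56.17 to 67.36%, with a median of 63.62%. Run moved with this measure. In each of the 9 groups with libraries in runs 4 and 5, the mean share was lower in run 5 (differences of −6.35 to −0.36 points), and in 8 of them every library of run 5 lay below every library of run 4. Within runs 4 and 5, CTCF-AID cells differed from full-length transgene cells by +1.69 and +3.10 points without overlap, and the endogenous deletion differed from WT by +0.02 and −0.77 and from CTCF-AID by −1.26 and −2.21.

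Inside the domain, contacts followed a pattern of blocks. The domain was cut into 33 bins of 60 kb, of which 13 held a peak. The mean corrected value of each of 557 pairs of bins was set against the mean at the same bin distance. That mean was taken over all bin pairs of the region, so the ratios also hold the domain's difference from the rest. With full-length CTCF, 80 bin pairs exceeded 1.5 times that mean and 119 fell under 1/1.5 of it. Bins 1 to 3, which adjoin boundary 5 and hold peaks 1 to 3, met bins 12 to 17 with a median of 1.89 times the mean at the distance (18 bin pairs). Contacts within bins 19 to 29, around peaks 9 to 12, were at 1.49 times (63 bin pairs). Contacts between bins 4 to 17 and bins 19 to 29 were at 0.743 times, and 77.3% of those bin pairs were below 1. These blocks were drawn after the values were seen.

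Each bin pair was tested with limma on log2(value + 0.1), with the spread estimated over all libraries and Benjamini–Hochberg adjustment over the 2548 bin pairs of the region. For no dox against full-length CTCF, 16 member bin pairs fell and 8 rose, that is 2.87 and 1.44% of the 557, beside 2% and 5.02% of all bin pairs of the region. The fraction that fell was near that of the whole region. In no dox the median difference over all bin pairs of the region was +0.161 on the log2 scale, and that over the member bin pairs was +0.065. Of the 16 that fell, 13 involved bins 1 to 3, against 96 of all 557, and none of the 8 that rose did.

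For ΔN(1–265), 93 member bin pairs fell and 56 rose, or 16.7 and 10.1%, beside 13.3% and 8.28% in the region. Of the 93 that fell, 41 involved bins 1 to 3 and 16 the last 2 bins next to boundary 6, against 96 and 65 of all 557. None of the 56 that rose involved the first 2 or the last 2 bins. Between bins 4 to 17 and bins 19 to 29, 53 bin pairs rose and none fell, and their median rose from 0.743 to 0.895 times the mean at the distance. In the block of bins 1 to 3 with bins 12 to 17, 17 of 18 bin pairs fell with ΔN(1–265) and 8 of 18 in no dox, and the median was 1.53 and 1.54 times the mean at the distance. When values were first divided by the mean at their distance, 75 of 233 calls in the domain were lower for ΔN(1–265), beside 325 of 698 in the region, and 41 of 54 for no dox, beside 119 of 240.

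**Figure D3:**
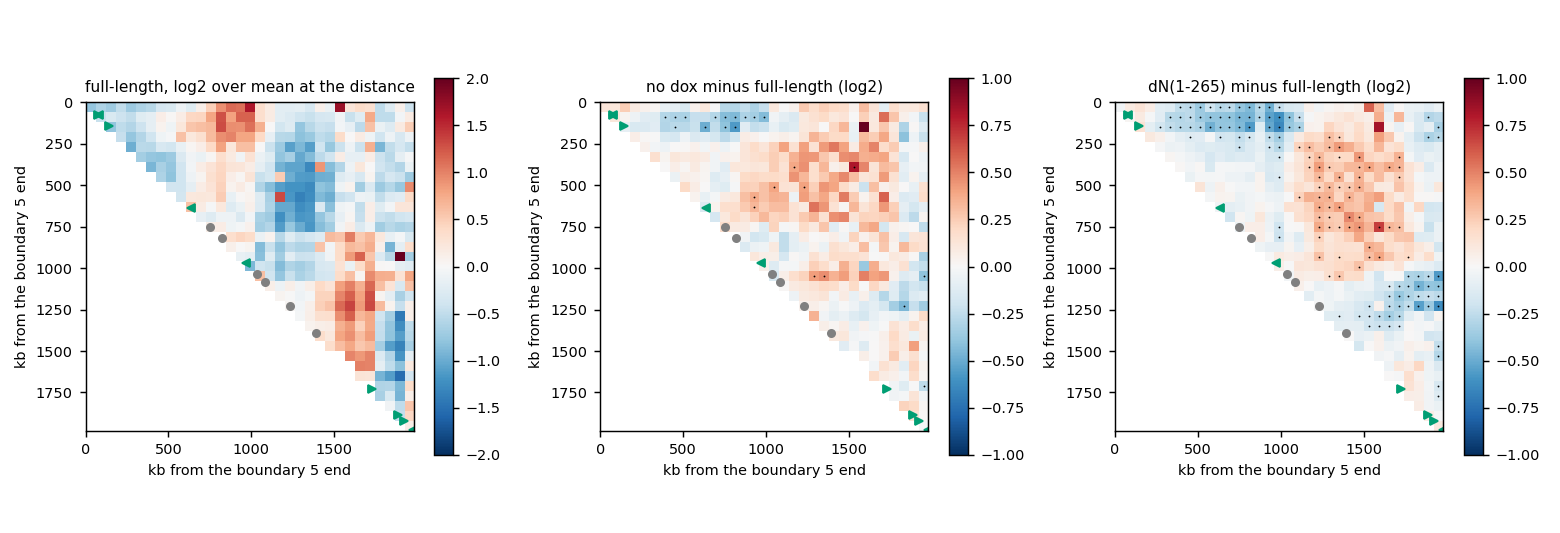
Maps of the domain in bins of 60 kb (axes, kb from the boundary 5 end) with full-length CTCF as log2 over the mean at the distance, and log2 differences of no dox and of ΔN(1–265) from full-length CTCF, where dots mark limma calls, green arrows peaks with a core (pointing right for the plus strand) and grey points peaks without. Calls in no dox (16 lower, 8 higher) and ΔN(1–265) (93 lower, 56 higher) show the falls along the first 3 bins.

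The contact of bin 2 (chrX:101291148-101351147), which holds peaks 1 and 2, with bin 14 (chrX:102011148-102071147), which holds peak 6 in Magee2, was one of the strongest for its distance, 2.42 times the mean at 720 kb. Full-length libraries gave 4.96, 5.97 and 6.79 ppm as lowest, median and highest, no dox gave 4.17 and 4.53 ppm, ΔN(1–265) clone 1 gave 3.69 to 5.05 ppm and clone 2 gave 4.04 to 4.46 ppm. No dox and clone 2 lay below every full-length library, and clone 1 overlapped them in its highest library. The difference was −0.44 ± 0.10 (SE) in no dox (limma adjusted p = 0.002208) and −0.46 ± 0.05 with ΔN(1–265) (limma adjusted p = 2.237e-10). In CTCF-AID cells it was higher than with the full-length transgene (7.17 to 8.06 ppm, +0.33, limma adjusted p = 0.001739).

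Bin 3 (chrX:101351148-101411147), which holds peak 3, and bin 14 gave 5.30, 6.50 and 7.95 ppm with full-length CTCF and 3.88 and 4.90 ppm in no dox, all no dox values lying below the full-length range. This was a fall by 0.56 ± 0.10 (SE) on the log2 scale (limma adjusted p = 4.74e-05), and ΔN(1–265) fell by 0.57 ± 0.05 (limma adjusted p = 1.192e-13). The contact of bin 2 with bin 17 (chrX:102191148-102251147), which joins peaks 1 and 2 to peak 7 over 900 kb, gave 3.16, 4.03 and 5.05 ppm with full-length CTCF. No dox gave 2.96 and 3.02 ppm, and ΔN(1–265) gave 2.49 to 3.00 ppm in clone 1 and 2.44 to 2.66 ppm in clone 2, so that no library of either reached the full-length range. The falls were −0.43 ± 0.10 (SE) in no dox (limma adjusted p = 0.003057) and −0.61 ± 0.06 with ΔN(1–265) (limma adjusted p = 2.339e-14).

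Some contacts passed the test with ΔN(1–265) and not in no dox, which had fewer libraries. The difference between these was not tested. Bin 3 with bin 17 (peaks 3 and 7) gave 3.53, 4.16 and 5.44 ppm with full-length CTCF and 3.92 and 3.37 ppm in no dox, where it was not called (−0.21, limma adjusted p = 0.3439). With ΔN(1–265) it fell by 0.65 ± 0.07 (SE) on the log2 scale (limma adjusted p = 7.451e-11). Toward boundary 6, bin 21 (peak 10) with bin 33 (peaks 14 and 15) gave 1.82, 2.76 and 3.32 ppm with full-length CTCF, fell by 0.62 ± 0.07 with ΔN(1–265) (limma adjusted p = 7.887e-11) and gave −0.35 in no dox (limma adjusted p = 0.08309). Bin 18 (peak 8) with bin 33 passed in both. It fell by 0.56 ± 0.07 with ΔN(1–265) and by 0.40 in no dox (limma adjusted p = 3.178e-09 and 0.0458).

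**Figure D4:**
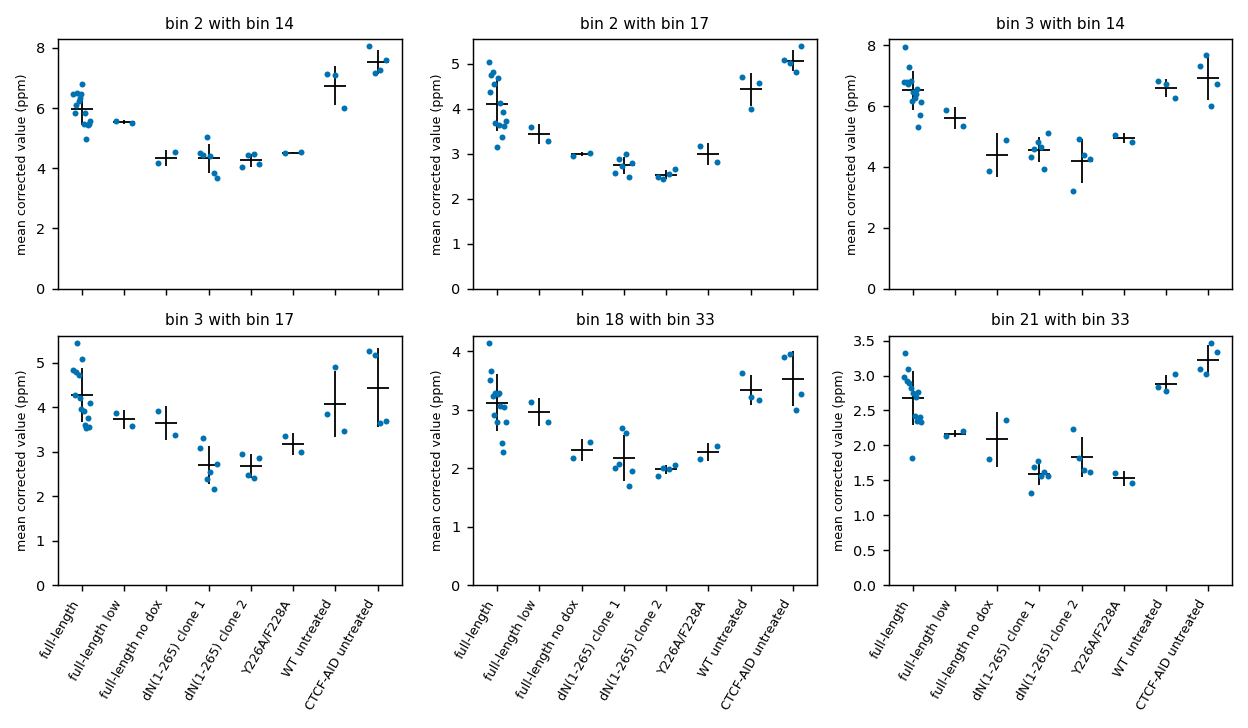
Mean corrected value (ppm) of 6 bin pairs in every library of 8 groups, with bars for mean ± SD. For bin 2 with bin 17 the no dox and ΔN(1–265) libraries (2.44 to 3.02 ppm) lie below the 14 full-length libraries (3.16 to 5.05 ppm).

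The other falls among the 5 largest in no dox were bin 3 with bin 11 (peaks 3 and 4), which gave 4.68, 5.68 and 6.87 ppm with full-length CTCF and 4.09 and 3.93 ppm in no dox (−0.49 ± 0.13, SE, limma adjusted p = 0.01096), and bin 21 with bin 31 (−0.45 ± 0.13, limma adjusted p = 0.03024). Rises joined bins of the middle of the domain. Bin 7 with bin 26, over 1140 kb, gave 0.647, 0.825 and 1.21 ppm with full-length CTCF and 1.47 and 1.60 ppm in no dox (+0.81 ± 0.21, limma adjusted p = 0.009538). Bin 18 with bin 22 gave 4.02, 4.67 and 5.67 ppm and then 6.29 and 6.15 ppm (+0.42 ± 0.10, limma adjusted p = 0.003631), and bin 18 with bin 23, bin 9 with bin 18 and bin 9 with bin 21 rose by 0.47, 0.39 and 0.40 on the log2 scale. With ΔN(1–265), the largest rises were bin 13 with bin 27 (+0.69, 10 fragment pairs, limma adjusted p = 0.04816), bin 12 with bin 24 (+0.48), bin 13 with bin 25 (+0.45), bin 5 with bin 23 (+0.43) and bin 6 with bin 25 (+0.43).

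The number of calls in no dox rested on few libraries. Leaving out 1 library at a time gave 0 to 34 calls in place of 24: 0 without no dox replicate 1, 3 without no dox replicate 2 and 15 without full-length replicate 6. Raw counts gave 0 calls. With run as a block the balance turned, to 30 member bin pairs lower and 71 higher (18.1% of the 557 called), beside 92 lower and 431 higher of the 2548.

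Y226A/F228A, 2 aromatic residues of the N terminus, had 39 member bin pairs that fell and 13 that rose, or 7 and 2.33%, beside 4.79% and 3.61% in the region. Bins 1 to 3 took part in 22 of the 39. Bin 2 with bin 14 gave 4.52 and 4.53 ppm, below the full-length range, and fell by 0.39 on the log2 scale (limma adjusted p = 0.004759), and bin 21 with bin 31 fell by 0.76 (limma adjusted p = 2.84e-05). In the block of bins 1 to 3 with bins 12 to 17, 13 of 18 bin pairs fell. Values divided by the mean at their distance gave 56 lower of 100 calls, beside 178 of 382 in the region. The balance turned with run as a block, to 21 lower and 52 higher, beside 81 lower and 249 higher of 2548 in the region. Without replicate 1 or 2 of Y226A/F228A 14 or 13 calls were left.

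Low expression of full-length CTCF gave no called bin pair, in the domain or in the region (0%), by limma. At an unadjusted p of 0.05, 23 of the 557 member bin pairs were lower and 2 higher. The threshold alone marks a fraction of about 0.05, and the region was not counted at it, so nothing is read from this split. Bin 2 with bin 14 was at 5.58 and 5.50 ppm there, inside the full-length range. Untreated CTCF-AID cells against the full-length transgene had 40 member bin pairs lower and 25 higher, or 7.18 and 4.49%, beside 3.85% and 1.49% in the region. In bins 1 to 3 with bins 12 to 17, 8 of 18 were higher and none lower, and the median was 2.23 times the mean at the distance, beside 2.3 in WT. Between bins 4 to 17 and bins 19 to 29, 33 bin pairs were lower and none higher, with medians of 0.619 in CTCF-AID and 0.617 in WT cells. Treatment and transgene differed together between CTCF-AID and full-length transgene cells and cannot be told apart. With run as a block, 63 member bin pairs were lower and 106 higher, so that the balance of directions turned. In the whole region 143 of 2548 bin pairs were then lower and 177 higher, so that it turned there too.

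Contacts of the domain's edges with its interior were also weaker with ΔN(1–265). The enrichment is log2 of the mean of pairs with 1 fragment in the 100 kb next to a boundary over that of the other member pairs at the same distance. At boundary 5 (5755 pairs), full-length CTCF gave 0.081 ± 0.029 (SD, n = 14) with a range of 0.011 to 0.133, and ΔN(1–265) gave −0.042 ± 0.031 (SD, n = 10) with a range of −0.110 to 0.015. The groups overlapped by a single ΔN(1–265) library, and the difference was −0.123 (p = 2e-05, the smallest the permutation test can give with 100000 resamples, adjusted p = 6e-05 over 6 tests). At boundary 6 (4999 pairs), full-length CTCF gave −0.060 ± 0.051 and ΔN(1–265) gave −0.195 ± 0.040, a difference of −0.135 with the same permutation p.

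No dox gave −0.023 and 0.053 at boundary 5, both below the full-length mean, and −0.156 and −0.158 at boundary 6, inside the full-length range of −0.186 to 0.005. The differences were −0.066 and −0.097 (adjusted p = 0.06 for both, exact permutation test, n = 2 and 14). Other lines spread on both sides. At boundary 5, ΔN(264–288) had the lowest mean (−0.110 and −0.138), and at boundary 6 the Parylation-deficient mutant (−0.283 and −0.289) and Y226A/F228A (−0.266 and −0.220) were. WT cells gave 0.027 to 0.045 at boundary 6. The enrichment of these other lines was not tested.

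**Figure D5:**
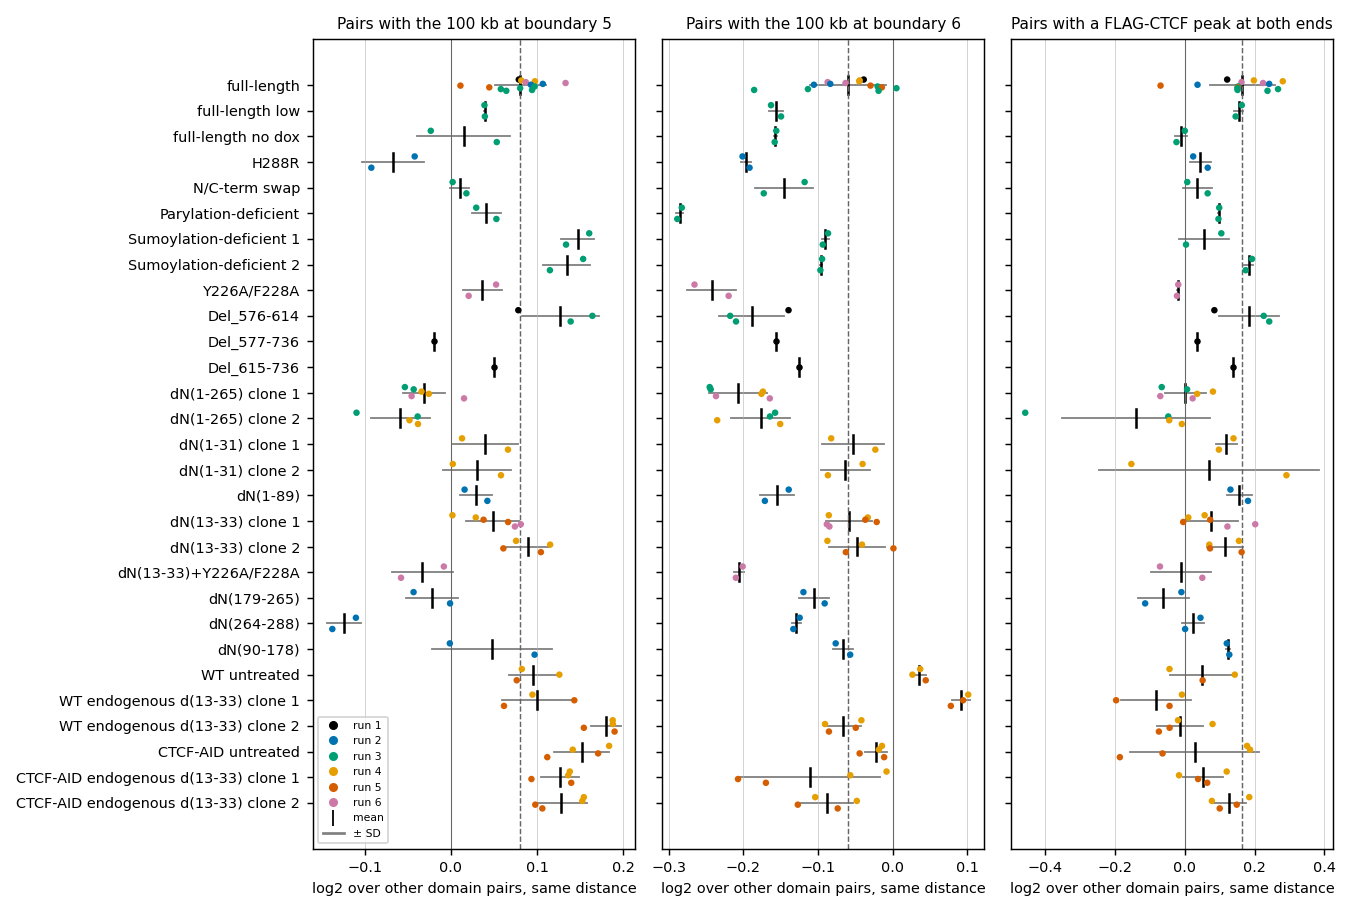
Enrichment (log2 over other domain pairs at the same distance) of pairs with the 100 kb at boundary 5, with the 100 kb at boundary 6, and with a FLAG–CTCF peak at both ends, in every library by group, coloured by run, with black ticks for the mean, grey lines for ± SD and a dashed line at the full-length mean. In all 3 panels the means of ΔN(1–265) clones 1 and 2 lie left of the dashed line (full-length means 0.081, −0.060 and 0.165).

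Pairs with a FLAG–CTCF peak within 10 kb of both fragment midpoints (436 pairs) were enriched with full-length CTCF, by 0.165 ± 0.093 (SD, n = 14) on the log2 scale over other member pairs at the same distance. Values ran from −0.069 to 0.281, the lowest being a library of run 5. ΔN(1–265) gave −0.457 to 0.081, with a mean of −0.055 ± 0.149 (SD, n = 10), a difference of −0.220 (p = 4e-05, adjusted p = 8e-05, permutation test). No dox gave −0.024 and a value under 0.001 in size, a difference of −0.177 (adjusted p = 0.06667, exact permutation test, n = 2 and 14), and these values were above the lowest full-length library and below the others. Low expression gave 0.163 and 0.146, close to the full-length mean. Within runs, ΔN(1–265) was lower by −0.333, −0.224 and −0.217 (runs 3, 4 and 6, no overlap) and no dox by −0.204 (run 3). WT and CTCF-AID cells had means of 0.050 and 0.029.

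By the orientation of the cores, pairs of peaks whose cores pointed toward each other (21 fragment pairs) had the highest enrichment, 0.80 ± 0.23 (SD, n = 14) with full-length CTCF, against 0.39 ± 0.18 for peaks in the same orientation (51 pairs) and −0.04 ± 0.22 for peaks that pointed apart (53 pairs). The values for convergent pairs were 0.54 in no dox (0.37 and 0.71), 0.78 with low expression, 0.47 ± 0.13 with ΔN(1–265), 0.79 with Y226A/F228A, 0.93 in WT and 0.86 in CTCF-AID cells. For tandem pairs they were 0.10 in no dox, 0.42 with low expression, 0.14 ± 0.22 with ΔN(1–265), 0.24 with Y226A/F228A, 0.44 in WT and 0.41 in CTCF-AID cells. Divergent pairs gave −0.09 in no dox and −0.18 with ΔN(1–265). With full-length CTCF the convergent pairs of peaks differed widely, from 1.80 for peaks 1 and 7 to 0.52 for peaks 14 and 15, 0.03 for peaks 1 and 4 and −0.17 for peaks 1 and 15. Peaks 1 and 2 have opposite cores within a few kb, and each fragment near them was given to the nearest core. This choice set whether its contact with peak 7 counted as convergent or tandem. The tandem peaks 2 and 7 gave 1.93 with full-length CTCF. All values by orientation are descriptions without a test, since each orientation rests on few peaks that share fragments.

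Among 63 pairs of peaks with at least 4 fragment pairs, the highest was peak 2 with peak 7, whose sequences are shown above, 892 kb apart with both cores on the minus strand. With full-length CTCF its log2 enrichment was 1.93 ± 0.23 (SD, n = 14, range 1.49 to 2.34). No dox gave 0.74 and 1.03, and ΔN(1–265) gave 0.97 to 1.63, with a mean of 1.20 ± 0.27 (SD, n = 10). WT and CTCF-AID cells had means of 2.40 and 2.31. The convergent peak 1 with peak 7, 895 kb apart, gave 1.80 ± 0.29 with full-length CTCF, 0.92 and 1.10 in no dox and 1.05 ± 0.26 with ΔN(1–265). Peaks 1 and 2 lie in the same bin within a few kb, so that their contacts share fragments. Peak 6, which had no core in its interval, still met peaks 1 and 2 at 1.35 and 1.47 with full-length CTCF.

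Some of the highest values of the domain came from single fragment pairs and were present in every library. The highest joined chrX:102136938-102138975 and chrX:103139766-103146624, over 1005.2 kb, with a mean of 1216 ppm with full-length CTCF. Over all 91 libraries it ran from 857.8 to 1876 ppm (median 1230), or 0.434 to 1.12% of the contact of the domain, and it was among the 10 highest member pairs in 91 of 91 libraries, no dox included. It supplied 90.7% of the sum of bin 16 with bin 32, which was the highest bin pair for its distance (5.83 times). A second one, chrX:101798861-101802724 with chrX:102378079-102378386, ran from 244.8 to 1221 ppm over the 91 libraries and made up 78.2% of bin 10 with bin 20. Bin 1 with bin 26 took 74.4% of its sum from 1 pair. Together the 10 highest pairs made up 1.73% of the contact of the domain with full-length CTCF, and 7 of 528 bin pairs with at least 10 fragment pairs took over 50% of their sum from 1 of them. By contrast, bin 2 with bin 14 took 3.27% of its sum from its highest fragment pair. Other bin pairs high for their distance with full-length CTCF were bin 1 with bin 17 (3.07 times), bin 21 with bins 27 and 29 (2.55 and 2.50 times), bin 3 with bin 14 (2.48), bin 20 with bin 29 (2.44) and bin 22 with bin 27 (2.30). Of these, bin 20 with bin 29 and bin 21 with bin 29 fell with ΔN(1–265), by 0.38 and 0.33 on the log2 scale (limma adjusted p = 1.52e-06 and 7.491e-06).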

How the data were processed

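5C libraries from mouse embryonic stem cells were analysed from deposited tables, and the members, bins and lists were chosen with earlier results of these data known. Per the methods, the authors mapped reads to primer pairs in mm9. The raw tables they deposited give counts for each primer pair, of which 82 of 91 were complete and were used for depth and as an alternative. The authors then corrected the matrices iteratively at the fragment level and deposited the corrected signal, scaled to sum to 1000000. The submitters' processing notes also name Bowtie2, SAMtools, mm9 and mm10 for the series, without versions. Of these matrices 78 were symmetric and 13 were forward by reverse, and only the forward by reverse pairs were used, rescaled to 1000000. The peak list holds intervals only, in mm9. Per the study's reporting summary, CTCF peaks were called per replicate with GEM, and those shared by replicates were kept. Sequences and genes came from the mm9 reference (NCBIM37) with the matching GENCODE annotation.

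The domain spanned chrX:101231148-103211148. Names follow the study, except that C-terminal deletions are spelled as in the labels, which also write 1-88 for ΔN(1–89) and 89-178 for ΔN(90–178). A call is an adjusted p under 0.05. Single measures were compared by two-sided exact permutation tests (100000 resamples, seed 11, where both groups had 10 or more libraries), with ΔN(1–265) clones 1 and 2 pooled for the share, edges and peak pairs. Bin pairs of 60 kb were fitted with limma on log2(mean + 0.1), with all 29 groups sharing 1 spread and ΔN(1–265) as the mean of its clones. Bin pairs were named as the 5 largest falls and the 5 largest rises among those called in no dox and in ΔN(1–265), and the 10 highest over the mean at their distance with full-length CTCF. In the fit, 2 lines had 1 library. Scripts were tested on simulated data. Software was R 4.3.3 with limma 3.58.1, and Python 3.11.15 with numpy 2.4.6, pandas 2.3.3, scipy 1.17.1 and matplotlib 3.10.9.

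For transgene lines and full-length CTCF, 0 of the checked pairs of equal replicate number came from 1 run, so that the check could not show whether numbers pair libraries. The correlation of their deviations ran from −0.142 to 0.127. For CTCF-AID and full-length CTCF, with 2 of 6 such pairs in 1 run, it ran from −0.239 to 0.389. Pairs of equal number and equal run gave 0.223 to 0.307 for WT endogenous Δ(13–33) clone 2 with WT. They gave 0.315 to 0.517 for CTCF-AID endogenous Δ(13–33) clone 1 with CTCF-AID. In both, every such correlation exceeded 0.1, the level set beforehand for pairing. Pairs of unequal numbers ran from −0.405 to 0.373 and from −0.491 to 0.504. These ranges overlapped those of equal numbers, so that a pairing by number was not established. No pair of libraries held equal values.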

Additional observations from a re-analysis of the deposited data

Results flagged for a closer look

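Each of these values stood apart from the other libraries of its group by Dixon's test of the gap at the end of the range, which was applied to 72 sets of 4 to 10 libraries and by chance marks about 1 in 20 of them. ΔN(1–265) clone 2 replicate 1 was marked 3 times. Its share of contact inside the domain was 60.67%, against 62.63 to 62.82% in the other 3 libraries. Its enrichment at boundary 5 was −0.1095 on the log2 scale, against −0.04806 to −0.03816. Its enrichment of peak pairs was −0.457, against −0.04735 to −0.008491. In the same clone, replicate 3 had an enrichment of −0.2352 at boundary 6, against −0.1645 to −0.1507 in the others.

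At boundary 5, WT endogenous Δ(13–33) clone 2 replicate 3 had 0.1543, against 0.1878 to 0.19 in the other 3 libraries. CTCF-AID endogenous Δ(13–33) clone 1 replicate 3 had 0.09349, against 0.1362 to 0.1397.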

How the results depend on the processing

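The differences of ΔN(1–265) at both edges and in peak pairs stayed past the threshold under every alternative run for them, with leave-one-out ranges of −0.129 to −0.115 at boundary 5, −0.144 to −0.129 at boundary 6 and −0.238 to −0.175 for peak pairs. No named bin pair changed direction, but 12 of 20 calls were lost with raw counts and 4 of 20 with a replicate block. The cause was not tested in any case.

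With all libraries and no block, the share of contact inside the domain was called in no tested line. It depended on the full-length libraries of run 5. Without both (chosen after seeing the data) it gave −3.40 for no dox, −2.23 for ΔN(1–265), −2.64 for Y226A/F228A and 12 called lines, and the enrichment of no dox was −0.0744 at boundary 5 and −0.197 for peak pairs, both past the threshold. With run as a block, ΔN(1–265) gave −2.27 and passed the threshold by permutation within runs. Directions near 0 reversed: low expression gave 0.310 with raw counts, and CTCF-AID against full-length gave −0.330 with raw counts, −1.66 with symmetric matrices alone and −0.733 without the full-length libraries of run 5, where CTCF-AID kept its own. Leaving out 1 library gave −3.05 to −2.37 for no dox, −0.614 to 0.0685 for low expression, −1.88 to −1.20 for ΔN(1–265), −2.29 to −1.61 for Y226A/F228A, −0.616 to 0.786 for CTCF-AID (also −0.422, −0.381 and −0.227), −1.62 to −0.404 for endogenous Δ(13–33) against WT and −2.46 to −0.816 against CTCF-AID.

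Of the combinations of line and class, 4 passed with raw counts, 2 with medians, 0 with a replicate block and 0 with run as a block (blocks too small to pass the adjustment for most lines), and leave-one-out gave 40 to 47. No dox passed at boundary 5 and boundary 6 with edges of 200 kb (−0.108 and −0.171) and moved to −0.565 where peaks had to overlap the fragments. Leave-one-out gave −0.104 to −0.0273, −0.106 to −0.0918 and −0.195 to −0.165 for no dox at boundary 5, at boundary 6 and in peak pairs.

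The percentage of member bin pairs called varied most. For no dox it was 0 with raw counts, 9.69 after division by the mean at the distance, 0 in bins of 20 kb, 9.16 with a replicate block, 18.1 with run as a block and 0 to 6.1 with leave-one-out. Leave-one-out aside, calls in the whole region numbered 2, 240, 46, 179 and 523 in the same order. These were out of 2548 bin pairs, or 20598 in bins of 20 kb, as in the counts that follow. For ΔN(1–265) it was 41.8 after division by distance, 6.26 in bins of 20 kb, 41.8 with run as a block and 21.5 to 28.5 with leave-one-out. The region had 698, 1111 and 848 calls in the first 3 of these settings. For Y226A/F228A it was 3.59 with raw counts, 18 after division by distance, 27.3 with a replicate block and 2.33 to 10.6 with leave-one-out. Calls in the region were 93 with raw counts, 382 after division by distance and 426 with a replicate block. For CTCF-AID it was 4.49 with raw counts, 20.3 after division by distance, 0.733 in bins of 20 kb, 21.7 with a replicate block, 30.3 with run as a block and 7.36 to 13.3 with leave-one-out. Leave-one-out aside, the region had 51, 258, 104, 338 and 320 calls in that order. For low expression it was 6.46 with a replicate block and 0.539 with run as a block, beside 79 and 16 calls in the region. Equal replicate numbers were not shown to pair these libraries, so the replicate block stands here as an alternative alone. Zeros in 3.39 to 51.3% of member pairs limit what single fragment pairs can show.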

Other observations

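Clones of the same deletion were compared in 9 measures each for ΔN(1–265) and ΔN(13–33), and none of the 18 differences was called. The smallest p was that of the share of contact inside the domain between ΔN(1–265) clones 1 and 2 (63.25 and 62.21%, p = 0.009524, adjusted p = 0.1714, exact permutation test, n = 6 and 4).

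Within the blocks of the domain, 13 of 104 bin pairs inside bins 4 to 17 fell with ΔN(1–265) and none rose, and 17 of 63 inside bins 19 to 29 fell and none rose, by limma, where 13.3% of all bin pairs of the region fell. Bins 18 to 24 met bins 32 and 33 at 0.739 times the mean at the distance with full-length CTCF, 0.664 times with ΔN(1–265), where 8 of 14 bin pairs fell, and 1.04 times in WT cells. These blocks were drawn after the values were seen.

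A set of 3 further fragment pairs stayed high across libraries. The pair over 697.7 kb gave 403.3 ppm with full-length CTCF and was among the 10 highest in 91 libraries, that over 663.1 kb gave 257 ppm and was so in 90, and that over 416.6 kb gave 170.8 ppm and was so in 88.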
